A study of Mus musculus with 18 samples.

Results

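The genes described here encode the subunits of the ionotropic and metabotropic glutamate receptors and of the GABA-A and GABA rho receptors. They were taken by gene symbol alone: every probe set of the array that carries 1 symbol, where that symbol begins with Gria, Grik, Grid, Grin, Grm or Gabr followed by its subunit letter or number. This gave 40 probe sets of 38 genes, out of 35382 probe sets, of which 21153 carry 1 symbol. Of the 38 genes, 37 encode receptor subunits; the other, Grid2ip, encodes a scaffold protein of delta receptors and was caught by its name. Gabrb2 has 3 probe sets, and every other gene has 1. Other genes of these families were not analysed here.

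The study set mice that carry TN-XXL, a genetically encoded fluorescent calcium indicator protein, against wild type littermates of the strain C57BL/6. RNA of skeletal muscle, heart and hippocampus was hybridised to Affymetrix whole-transcript arrays, 18 in all, with 3 arrays for each genotype in each tissue. Transgenic samples are titled +/+. The promoter that drives the indicator, the number of transgenic lines, and the age and sex of the mice are not given in the labels. The question of the design was whether the indicator shifts gene expression in the tissues that carry it. A calcium indicator binds calcium ions inside the cell, and several of the receptors described here are themselves calcium channels or release calcium from stores.

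Glutamate is the main excitatory transmitter of the brain. AMPA, kainate and NMDA receptors are cation channels built of 4 subunits, and NMDA receptors pass calcium when glutamate arrives while the cell is depolarised. Metabotropic glutamate receptors act through G proteins: group I couples to phospholipase C and calcium release, while groups II and III lower cyclic AMP and mostly restrain transmitter release. GABA, the main inhibitory transmitter, opens GABA-A receptors, chloride channels of alpha, beta and gamma or delta subunits, and the rho subunits form GABA-gated channels best known from the retina. In the hippocampus these receptors carry the fast transmission and the synaptic plasticity between pyramidal cells, granule cells and interneurons.

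Values are log2 intensities as deposited by the authors, after robust multi-array averaging (RMA), so a difference of 1 is a 2-fold change. The table holds no detection calls. The median of all probe sets on each array serves below as a mark of brightness: it lay between 2.44 and 2.49 in muscle, 2.61 and 2.63 in heart and 3.68 and 3.71 in hippocampus, the same order of tissues in both genotypes. Arrays of the same group correlated at 0.982 to 0.993 over all probe sets. The tissues matched their labels: all 8 measured neuron markers were higher in wild type hippocampus than in muscle and heart, all 7 skeletal muscle markers were higher in muscle than in hippocampus, and all 6 heart muscle markers were higher in heart than in hippocampus. The labels call the arrays of a group replicates by number only and do not say that each is a separate mouse, so p-values measure the spread between these arrays, which may be partly technical.

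Of the 38 genes, 28 have a start site in the RefSeq promoter table (GRCm38.p6), with 36 promoters in all. The 250 bases before the start are printed for 5 of them, chosen to set genes that were bright only in hippocampus (Gria2 and Grm2) beside genes that were also above the array median in muscle or heart (Grik5, Gabra3 and Gabrr2). Each is read 5′ to 3′ on the gene's strand. Capitals mark matches, on either strand, to the left part of the RE1 element bound by REST, a repressor of neuronal genes (TTCAGCACC), its right part (GGACAGNGC), the GC box (GGGCGG) and the TATA box (TATAAA). A match describes the letters only and shows no binding.
Gria2, chr3:80802836-80803085, minus strand: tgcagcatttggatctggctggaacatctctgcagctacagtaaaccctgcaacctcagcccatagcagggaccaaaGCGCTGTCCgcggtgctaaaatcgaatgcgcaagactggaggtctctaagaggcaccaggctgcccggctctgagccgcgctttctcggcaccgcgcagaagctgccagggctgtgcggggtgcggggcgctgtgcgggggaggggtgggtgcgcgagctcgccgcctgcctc
Grm2, chr9:106656110-106656359, minus strand: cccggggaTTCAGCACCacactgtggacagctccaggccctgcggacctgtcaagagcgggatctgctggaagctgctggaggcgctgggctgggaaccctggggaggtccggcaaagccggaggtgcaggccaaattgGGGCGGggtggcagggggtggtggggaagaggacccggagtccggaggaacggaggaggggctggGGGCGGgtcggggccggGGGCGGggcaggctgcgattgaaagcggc
Grik5, chr7:25072370-25072619, minus strand: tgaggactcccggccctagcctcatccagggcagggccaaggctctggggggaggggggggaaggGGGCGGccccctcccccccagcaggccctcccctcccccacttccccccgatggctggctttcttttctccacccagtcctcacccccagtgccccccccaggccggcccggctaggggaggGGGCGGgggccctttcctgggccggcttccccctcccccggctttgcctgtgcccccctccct
Gabra3, chrX:72656920-72657169, minus strand: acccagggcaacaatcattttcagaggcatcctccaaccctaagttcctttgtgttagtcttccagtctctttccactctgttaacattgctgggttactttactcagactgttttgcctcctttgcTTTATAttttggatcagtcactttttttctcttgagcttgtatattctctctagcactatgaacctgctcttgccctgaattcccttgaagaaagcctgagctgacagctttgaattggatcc
Gabrr2, chr4:33062862-33063111, plus strand: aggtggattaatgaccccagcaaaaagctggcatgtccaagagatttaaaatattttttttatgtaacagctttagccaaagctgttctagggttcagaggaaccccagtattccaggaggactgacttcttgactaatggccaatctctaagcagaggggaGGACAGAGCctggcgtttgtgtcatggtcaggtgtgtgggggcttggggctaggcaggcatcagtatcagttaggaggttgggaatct

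The left part of RE1 stands in the Grm2 promoter, 242 to 234 bases before the start, and in 0.301% of all 32851 promoters; Grm2 was its 1 match among the 36. The right part was found in 4 of the 36, in Gabrg1, Gabrr2, Gria2 and Grid2ip, against 1.52% of all promoters. In Gria2, an AMPA subunit gene bright in hippocampus, it lies 173 to 165 bases before the start on the opposite strand, and in Gabrr2, the 1 gene below that was lower in hippocampus, it lies 88 to 80 bases before the start. The GC box was in 17 of the 36 (47.2%), against 32.7% of all, and the TATA box in 3, against 12.4% of all. The printed promoters hold 19 CpG (Gria2), 16 (Grm2), 8 (Grik5), 0 (Gabra3) and 1 (Gabrr2). Over all promoters the median was 6, and 37.8% held 10 or more. Gabra3, with 0, was itself bright in hippocampus, so CpG number did not follow brightness over these 5. Over the 28 genes, with 1 promoter each, the picture was different. The median was 13.5 CpG (range 0 to 42) for the 20 genes above the hippocampus array median. For the 8 not above it the median was 3.5 (range 1 to 21). The shares with 10 or more were 55% and 37.5%, and the difference was not tested. These are descriptions of the sequences, and no methylation or binding was measured.

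Most of the receptor subunit genes were far brighter in hippocampus than in the striated muscles. In wild type mice, 32 of the 40 probe sets, from 30 genes, were higher in hippocampus than in skeletal muscle by at least 1 log2 unit beyond the shift of all probe sets between the tissues (limma, Benjamini-Hochberg adjusted over all probe sets). That is 80% of the members, against 20.1% of all probe sets on the array. By the adjusted p alone 39 of the 40 differed, with a background of 78.2%, so that rule says little here. Against heart the counts were the same, 32 higher beyond the shift where 16.9% of all probe sets were, and 39 by the adjusted p alone where 76.8% were. The shift itself was 0.68 against muscle and 0.61 against heart. The median difference of the members was 5.76 against muscle and 5.53 against heart. These differences move with the whole neuron marker list, whose mean level ran from 9.77 to 9.84 on the wild type hippocampus arrays, 2.20 to 2.22 in muscle and 2.52 to 2.60 in heart. Glial marker lists were higher in hippocampus as well. The median difference over muscle was 7.71 for neuron, 5.44 for astrocyte, 5.49 for oligodendrocyte and 2.83 for microglia markers. In muscle all but 3 members, and in heart all but 4, lay below the array median, where a level cannot be told from background. For those genes the sizes given below are fitted values against such a dim level and may understate the tissue difference. Their order between genes reflects how bright each probe set is in hippocampus and is not read; the genes shown on every array are the ones at either end of this size in each family. In tissue RNA, fewer cells of a type and less RNA per cell cannot be told apart.

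**Figure D1:**
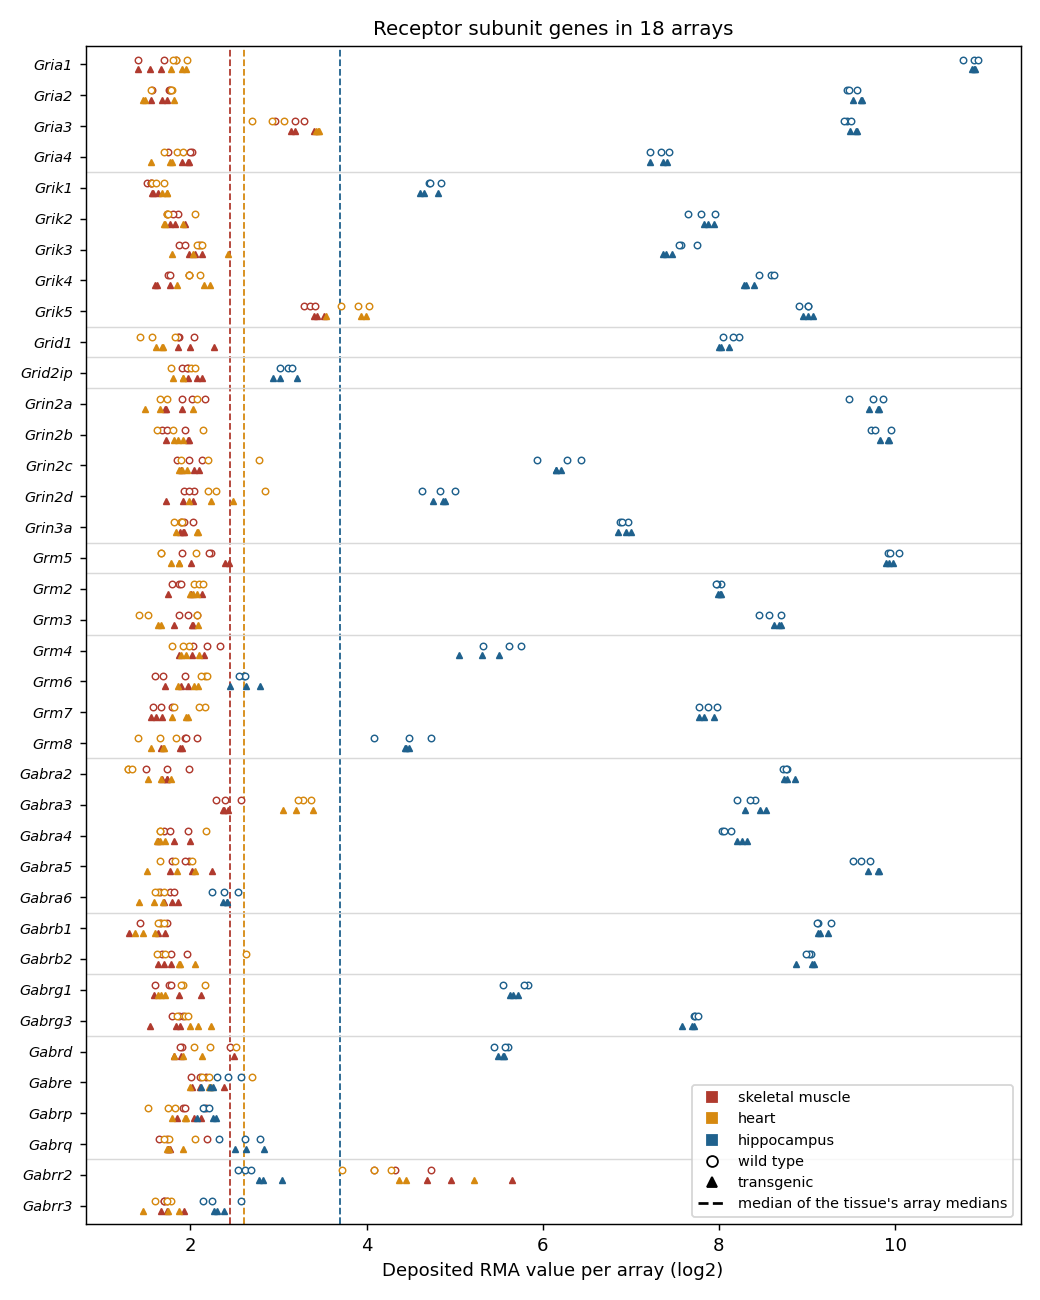
Deposited RMA value (log2) of each of the 38 genes on each of the 18 arrays, with tissues by colour, wild type as open circles, transgenic as filled triangles and each tissue's median of array medians as a dashed line. In hippocampus 30 genes lie above the dashed line in both genotypes, while most genes sit at about 1.5 to 2.5 in muscle and heart.

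The AMPA receptor genes, which encode the channels of fast excitatory transmission, were all bright in hippocampus. Gria1, the GluA1 subunit added to synapses in plasticity, read 10.77, 10.90 and 10.94 on the wild type hippocampus arrays and 1.70, 1.41 and 1.84 in wild type muscle. Its difference was 9.22 ± 0.10 (SE, adjusted p = 1.51e-18 by limma). The transgenic hippocampus read 10.87, 10.91 and 10.89, inside the wild type range. Gria4, a subunit of fast-gating receptors, went from 2.01, 1.99 and 1.74 in muscle to 7.43, 7.34 and 7.22 in hippocampus (5.41 ± 0.10). Gria2, whose edited GluA2 subunit blocks calcium entry, differed by 7.80 and Gria3 by 6.31. All 4 genes were above the array median in hippocampus, and Gria3 was also above it in muscle and heart.

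Kainate receptor subunits modulate release and excitability, and Grik4 and Grik5 encode the high-affinity subunits that need a Grik1, Grik2 or Grik3 partner to form a channel. All 5 were higher in hippocampus. Grik4 read 8.45, 8.59 and 8.62 in wild type hippocampus against 1.99, 1.74 and 1.77 in muscle (6.72 ± 0.10). Grik1 read 4.84, 4.71 and 4.71 against 1.51, 1.55 and 1.56 (3.21 ± 0.07). For both genes every hippocampus array was far above every muscle array. Grik5 was the only kainate gene above the array median in all 3 tissues: it read 3.29, 3.36 and 3.42 in wild type muscle, 4.03, 3.90 and 3.71 in heart and 8.91, 9.02 and 9.02 in hippocampus.

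Grid1 encodes a delta receptor, a family that binds cerebellins at synapses. It read 8.05, 8.23 and 8.16 in wild type hippocampus and 2.04, 1.87 and 1.86 in muscle (6.22 ± 0.11). The scaffold gene Grid2ip stayed below the hippocampus median at 3.09 ± 0.07 (SD, n = 3).

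The NMDA receptor genes measured were the modulatory GluN2 subunits and Grin3a. Grin2b, the subunit of slow channels that dominates early in life, read 9.73, 9.95 and 9.78 in wild type hippocampus and 1.94, 1.68 and 1.74 in muscle (8.03 ± 0.12). Grin2d, best known from the brainstem, diencephalon and interneurons, went from 2.04, 1.93 and 1.98 to 4.63, 5.0 and 4.84 (2.84 ± 0.16). Grin2a, the adult forebrain subunit, differed by 7.67, Grin3a by 4.97 and Grin2c, best known from cerebellar granule cells, by 4.23. Against heart the differences were 7.97 for Grin2b and 2.38 for Grin2d, from the same hippocampus arrays.

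Among metabotropic receptors, the group I gene Grm5 read 9.92, 10.05 and 9.94 in wild type hippocampus and 2.24, 1.90 and 2.21 in muscle (7.85 ± 0.13). In group II, Grm3, a receptor of neurons and astrocytes, went from 1.88, 1.97 and 2.07 to 8.70, 8.57 and 8.45 (6.60 ± 0.15). Grm2 went from 1.79, 1.88 and 1.89 to 8.03, 7.98 and 7.97 (6.14 ± 0.08). Group III was uneven. Grm7, a presynaptic receptor of active zones, read 7.97, 7.88 and 7.77 in hippocampus against 1.57, 1.79 and 1.66 in muscle (6.20 ± 0.10), while Grm4 differed by 3.38 and Grm8 by 2.45. Grm6, the receptor of retinal ON bipolar cells, read 2.60, 2.62 and 2.55 in hippocampus and 1.94, 1.60 and 1.69 in muscle, below the array median in both tissues. Its difference of 0.85 turned to -0.41 when arrays were centred on their medians, so no direction is given for it.

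The GABA-A alpha subunits set where a receptor sits and which drugs it binds. Gabra5, the alpha subunit of extrasynaptic receptors on hippocampal pyramidal cells, read 9.52, 9.71 and 9.61 in wild type hippocampus against 1.79, 1.98 and 1.93 in muscle (7.71 ± 0.14). Gabra2, Gabra4 and Gabra3 differed by 7.01, 6.26 and 5.90. Gabra6, the cerebellar granule cell subunit, read only 2.54, 2.38 and 2.24 in hippocampus and 1.76, 1.82 and 1.65 in muscle. Its difference of 0.65 was close to the shift of all probe sets, and it became -0.61 with centred arrays.

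Both measured beta subunit genes, which complete the GABA binding site, were bright in hippocampus. Gabrb1 read 9.13, 9.28 and 9.11 there and 1.42, 1.66 and 1.73 in wild type muscle (7.56 ± 0.11). For Gabrb2 the brightest probe set read 9.04, 9.02 and 8.99 against 1.67, 1.78 and 1.96 (7.21 ± 0.19). The other Gabrb2 probe sets differed by 7.09 and 5.45, so the 3 gave 1 direction. Of the gamma subunits, Gabrg3 read 7.72, 7.73 and 7.76 in hippocampus and 1.92, 1.79 and 1.87 in muscle (5.88 ± 0.09). Gabrg1, a gamma subunit found in glia as well as neurons, read 5.83, 5.79 and 5.55 against 1.76, 1.79 and 1.59 (4.01 ± 0.12).

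The remaining GABA-A subunits were mostly dim. Gabrd, the subunit of tonic receptors on dentate granule cells, was the exception, with 5.45, 5.60 and 5.57 in wild type hippocampus and 2.45, 1.91 and 1.88 in muscle (3.46 ± 0.18). Gabrp, known from epithelia rather than brain, read 2.15, 2.15 and 2.22 in hippocampus and 1.92, 1.93 and 2.18 in muscle, groups that overlap, and was the 1 probe set with no call against muscle (adjusted p = 0.16 by limma). Gabre and Gabrq also stayed below the hippocampus median, at 2.44 ± 0.14 and 2.58 ± 0.24 (SD, n = 3).

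Genomic neighbours did not all share the pattern. GABA-A genes lie in clusters, and the RefSeq gene table places Gabrg1, Gabra2, Gabra4 and Gabrb1 next to each other; all 4 were bright in hippocampus. In the cluster of Gabre, Gabra3 and Gabrq only Gabra3 was above the array median there. Of Gabra6 and Gabrb2, which are neighbours, only Gabrb2 was. The neighbours Gabrg3 and Gabra5 were both above it.

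Gabrr2, the rho2 subunit, ran the other way from the genes that were bright in hippocampus. It read 4.08, 4.33 and 4.73 in wild type muscle, 4.27, 3.72 and 4.09 in heart and 2.54, 2.62 and 2.69 in hippocampus. Every hippocampus array was below every muscle and heart array. The difference was -1.76 ± 0.25 against muscle (adjusted p = 1.28e-05 by limma) and -1.41 ± 0.25 against heart. It was the 1 member lower in hippocampus beyond the shift in each comparison, where 7.44% of all probe sets were lower than in muscle and 8.49% lower than in heart. Muscle and heart overlapped, and their difference of -0.35 did not pass the test (adjusted p = 0.3). Gabrr3, the other rho gene measured, was dim everywhere, with 2.58, 2.15 and 2.25 in hippocampus and 1.70, 1.69 and 1.74 in muscle.

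Heart and skeletal muscle differed little in these genes. However, only 3 members in muscle and 4 in heart were above the array median in both genotypes. For the others the comparison is between levels that cannot be told from background. By adjusted p 9 of the 40 members differed between wild type heart and muscle, against 38.7% of all probe sets, and the median difference was 0.01. None differed by 1 log2 unit beyond the shift of 0.07, where 7.04% of all probe sets were higher in heart and 3.77% lower. The largest difference was that of Gabra3, which read 3.28, 3.23 and 3.37 in heart and 2.57, 2.39 and 2.29 in muscle. The groups did not overlap, and the difference was 0.87 ± 0.10 (adjusted p = 3.95e-06 by limma). Grik5 was higher in heart by 0.52 ± 0.11 (adjusted p = 0.00113), again with no overlap. The other 7 calls, Gabra2, Gabrp and Grid1 lower in heart and Grin2d, Grm2, Grm6 and Grm7 higher, were of 0.24 to 0.46 in size and all below the array median in both tissues. The count was 15 when arrays were centred on their medians, where 41.7% of all probe sets were called.

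**Figure D2:**
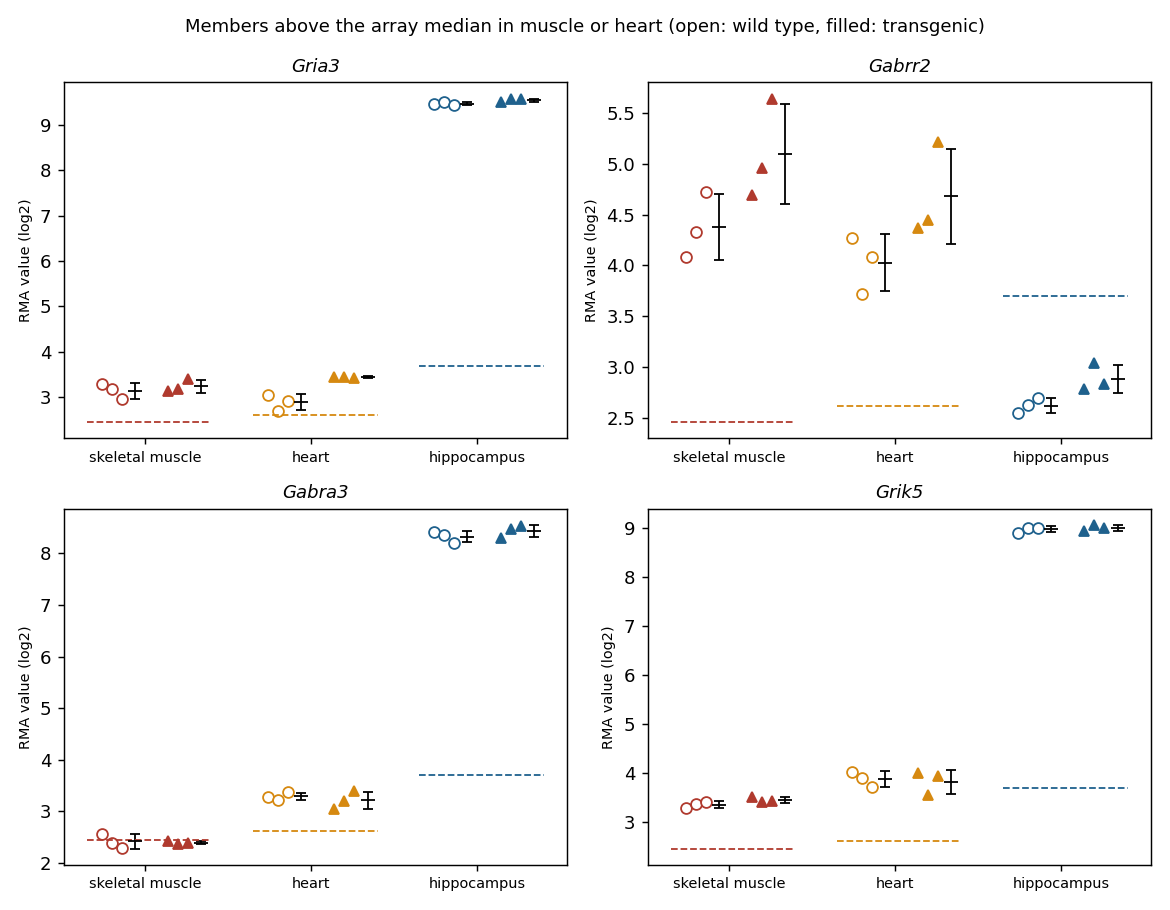
RMA values (log2) of Gria3, Gabrr2, Gabra3 and Grik5, the 4 genes above the array median (dashed line for each tissue) in muscle or heart in both genotypes, as open circles for wild type and filled triangles for transgenic arrays, with the mean and SD of 3 arrays in black. Gabrr2 is lower in hippocampus than in muscle and heart, the other 3 are higher there, and transgenic heart arrays of Gria3 lie at 3.42 to 3.46, above the wild type arrays at 2.70 to 3.06.

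The receptor genes showed few differences between transgenic and wild type mice. In hippocampus, where they are bright, 0 of the 40 passed the test, and 0% of all probe sets passed it either. At an unadjusted p under 0.05 there was 1 member (2.5%), against 5.04% of all probe sets, and every alternative fit tried also gave 0 adjusted calls. The differences ran from -0.27 to 0.26, with 24 above 0 and 16 below, and their median size was 0.04, against 0.09 over all probe sets. The 95% intervals lay within 1 log2 unit of 0 for all 40 probe sets and within 0.5 for 37. These intervals limit the size of a difference and do not show that the genotypes are alike.

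Within the hippocampus the members with the smallest unadjusted p were Grik4, Grm4, Grik3 and Gabre, all with lower transgenic means and none past the adjusted test. Grik4 read 8.45, 8.59 and 8.62 in wild type and 8.29, 8.30 and 8.40 in transgenic arrays, groups that did not overlap, with a difference of -0.23 ± 0.10 (adjusted p = 0.986). Grik3 also did not overlap, at 7.75, 7.57 and 7.55 against 7.40, 7.47 and 7.36. Grm4 overlapped, at 5.75, 5.62 and 5.32 against 5.04, 5.51 and 5.31 (-0.27). Gabre read 2.58, 2.43 and 2.30 against 2.12, 2.22 and 2.26, all below the array median. In all, 6 of the 40 members had groups that did not overlap in hippocampus, against 13.3% of all probe sets. Transgenic values were higher for Gabra4 and Gabrr2 and lower for Gabre, Gabrg3, Grik3 and Grik4. The 4 oligodendrocyte markers measured had a median difference of 0.24, with mean levels of 8.15 to 8.47 on transgenic and 7.82 to 8.19 on wild type hippocampus arrays, and the 8 neuron markers one of 0.05. Their part in the values above was not tested.

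In skeletal muscle 0 of the 40 passed, against 8.15% of all probe sets. Only 3 members were above the array median there in both genotypes, against 47% of all probe sets. Below it a level cannot be told from background, so the lack of calls does not show that these genes are unchanged. At an unadjusted p under 0.05 there was 1 member, Gabrr2, against 19.1% of all probe sets. Gabrr2 read 4.69, 4.96 and 5.65 in transgenic muscle against 4.08, 4.33 and 4.73 in wild type. The groups overlap by 1 array, and the difference was 0.72 ± 0.25 (adjusted p = 0.107). It passed (adjusted p = 0.0493) without transgenic muscle array 1, where it was 0.93, and (adjusted p = 0.047) when only probe sets with 1 symbol were tested, where 14.1% of them passed. Without transgenic muscle array 3 it was 0.45 (adjusted p = 0.37). The groups did not overlap for 4 members, Grid2ip and Grik1 with higher and Grin2a and Grm8 with lower transgenic values, against 21.9% of all probe sets. The next smallest p-values were of Grin2a (-0.25), Grik4 (-0.17) and Grid2ip (0.12), whose adjusted p ran from 0.394 to 0.56 and which were all below the array median.

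In heart 1 of the 40 passed, Gria3, against 3.19% of all probe sets. Only 4 members were above the array median in heart in both genotypes, so for the rest the lack of a call says little. Gria3, which encodes the AMPA subunit GluA3, read 3.45, 3.46 and 3.42 in transgenic heart and 3.06, 2.70 and 2.93 in wild type heart. All transgenic arrays lay above all wild type arrays, and all 6 were above the heart array median of 2.61. The wild type values were close to that median, and 47.7% of all probe sets were above it in both genotypes. Being above it therefore does not show that Gria3 was detected in heart. The difference was 0.55 ± 0.10 (SE), a 1.46-fold change with a 95% interval of 0.33 to 0.77 (adjusted p = 0.00841 by limma). A fit of the 6 heart arrays alone gave the same difference with an adjusted p of 0.14; in that fit 0.102% of all probe sets passed. In muscle the Gria3 difference was 0.10 and in hippocampus 0.08, neither past the test.

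Other members in heart did not pass. At an unadjusted p under 0.05 there were 5 (12.5%), against 15% of all probe sets. Gabra2 read 1.67, 1.52 and 1.78 in transgenic and 1.29, 1.30 and 1.33 in wild type heart, with no overlap but far below the array median (0.35, adjusted p = 0.0826; 0.0478 when only probe sets with 1 symbol were tested). Gabrr2 read 4.37, 4.45 and 5.22 against 4.27, 3.72 and 4.09, also with no overlap (0.65, adjusted p = 0.212). Without transgenic heart array 3 the difference was 0.39 (adjusted p = 0.577). Gabrg1 read 1.72, 1.63 and 1.67 against 1.92, 1.89 and 2.17 (-0.32, adjusted p = 0.2). Groups did not overlap for 7 members in heart, with higher transgenic values for Gabra2, Gabrg3, Gabrr2 and Gria3 and lower ones for Gabrb1, Gabrg1 and Grm6, against 18.5% of all probe sets. Endothelium markers moved with genotype in both striated muscles: 3 of 5 were lower in transgenic muscle and 2 of 5 in transgenic heart, where their mean level ran from 7.10 to 7.39 against 7.68 to 7.76 in wild type. The part of this in the Gria3 and Gabrr2 values was not tested. No neuron marker of 8 and no Schwann cell marker of 4 passed in muscle or heart. The mean levels of both lists lay below the array medians there, so the lack of calls says little about nerve content. In heart the neuron list ran from 2.38 to 2.45 on transgenic and 2.52 to 2.60 on wild type arrays, with a median difference of -0.19. Its median difference in muscle was 0.0015. The Schwann cell list had median differences of 0.012 in muscle and -2e-04 in heart.

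**Figure D3:**
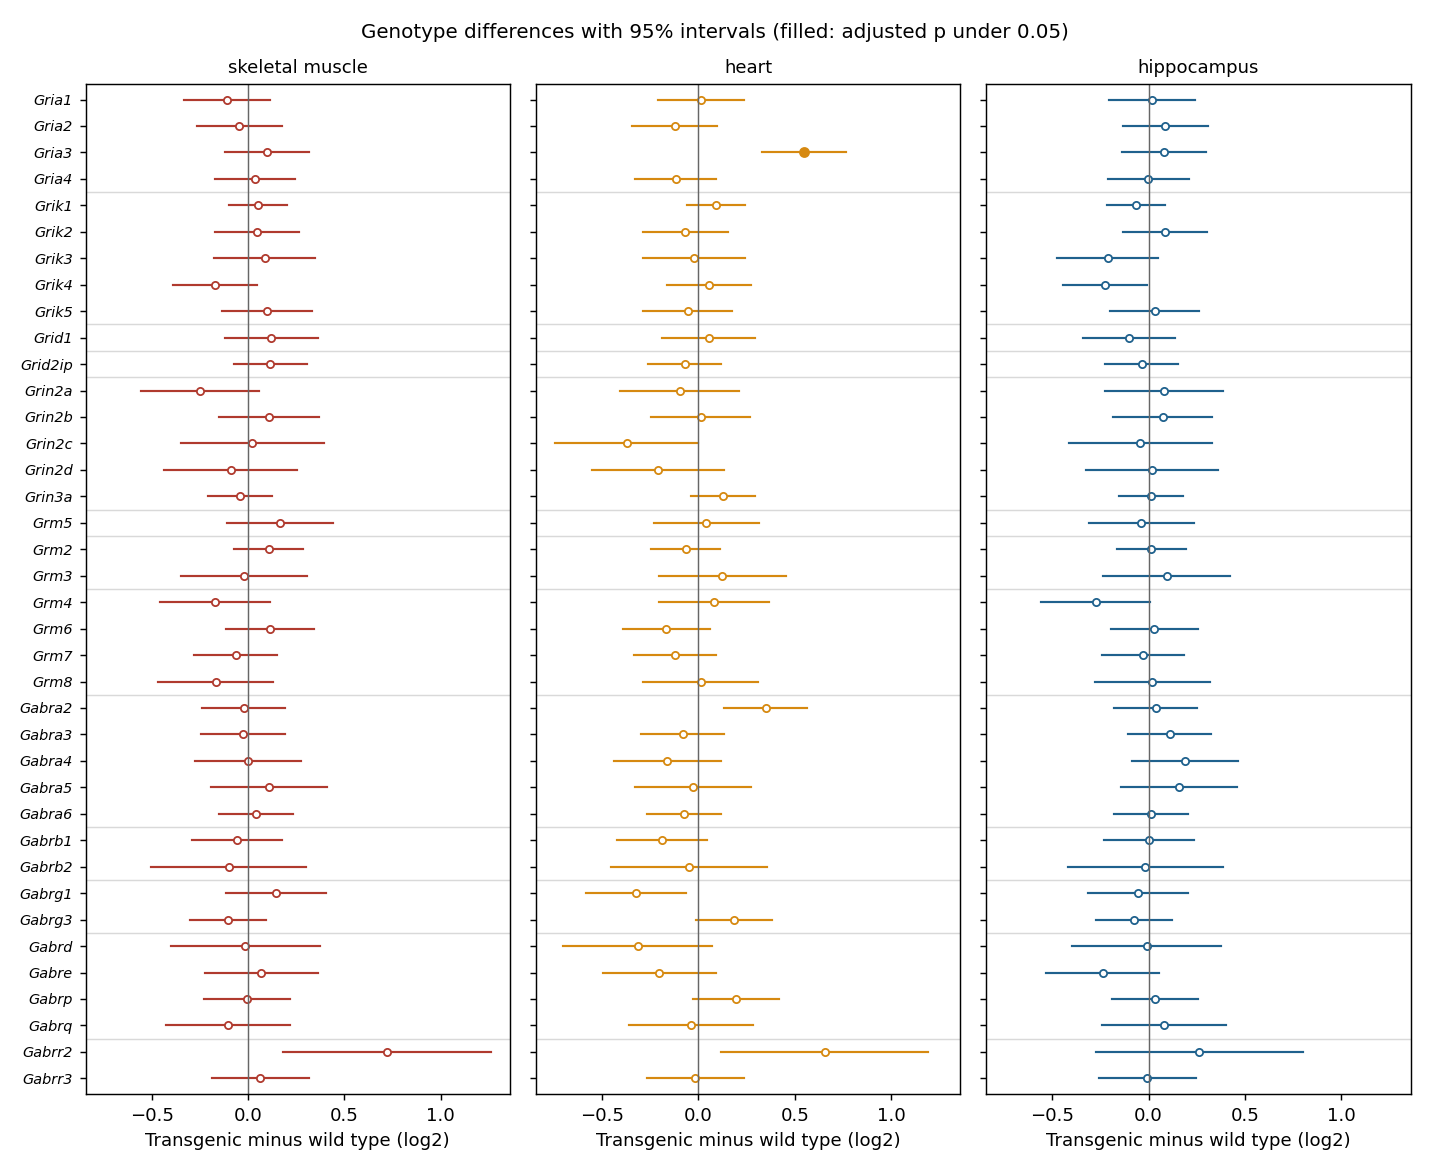
Transgenic minus wild type difference (log2) of each of the 38 genes in skeletal muscle, heart and hippocampus, with 95% intervals from the fit over 18 arrays; a filled point marks an adjusted p under 0.05. Gria3 in heart, at 0.55, is the 1 filled point, and most differences lie close to 0.

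The genotype differences of the members were also compared between tissues. The interaction of genotype and tissue was called for 0 of the 40 members by limma, against 3.89% of all probe sets, and every alternative tried gave 0. At an unadjusted p under 0.05 there were 3, Gria3, Gabra2 and Gabrg1 (15.9% of all probe sets), and the lowest adjusted p was that of Gria3 (0.12). So the Gria3 difference in heart is not shown to differ from that in muscle or hippocampus. Averaged over the 3 tissues, a comparison added after the data were seen, 2 of the 40 were called, Gria3 and Gabrr2, against 5.8% of all probe sets. Gria3 was higher in transgenic mice by 0.24 ± 0.06 (adjusted p = 0.0237). Gabrr2 was higher by 0.55 ± 0.15 (adjusted p = 0.0382), with a higher transgenic mean in each tissue. In hippocampus Gabrr2 read 2.78, 3.04 and 2.83 against 2.54, 2.62 and 2.69, below the array median. The Gabrr2 call was lost in 12 of the 18 fits that left out 1 array, with an adjusted p from 0.0212 to 0.0808 over them, and the Gria3 adjusted p ran from 0.0141 to 0.0504.

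The genes that work with these receptors were also described, from a list of 89 of which 81 were measured. In muscle 2 were higher and 6 lower (9.88% of the list, against the background of 8.15%), in heart 0 higher and 3 lower (3.7%, against 3.19%), and in hippocampus 0 by limma, with 1 at an unadjusted p under 0.05. By group, the auxiliary subunits of AMPA and kainate receptors had 2 of 16 lower in muscle and 1 lower in heart. The excitatory scaffolds had 1 of 26 higher and 2 lower in muscle. The inhibitory scaffolds had 1 of 12 higher and 1 lower in muscle, and 1 lower in heart. Of the 6 genes of GABA-B receptors none was called, and of the 21 for synthesis, transport and breakdown 1 was lower in muscle and 1 in heart. The shares lie near the background, so they say nothing particular about the list.

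In muscle the partner gene with the smallest adjusted p was Slc38a2, a neutral amino acid transporter that carries glutamine, which read 9.47, 9.48 and 9.17 in wild type and 8.17, 8.06 and 8.14 in transgenic muscle. It fell by 1.25 ± 0.12 on the log2 scale (adjusted p = 1.1e-05 by limma). Homer1, a scaffold that ties group I metabotropic receptors to calcium stores, fell by 0.66. Dlg1, a scaffold that binds AMPA and kainate subunits, fell by 0.48 and Trak2, an adaptor of motor proteins that also binds GABA-A beta subunits, fell by 0.52. Plcl1, a phospholipase C-like protein that binds GABA-A receptors, rose by 0.76. Neto2, an auxiliary subunit of kainate receptors, read 4.86, 4.96 and 3.07 in wild type muscle and 2.20, 2.23 and 2.53 in transgenic muscle. It fell by 1.98 ± 0.34 (adjusted p = 0.00156), with 1 wild type array close to the transgenic ones; without that array the difference was -2.59. When muscle arrays were fitted alone, the adjusted p was 0.109 for Neto2 and 0.0854 for Dlg1, in a fit where 2.37% of all probe sets passed. The other 2 muscle calls were Cacng7 (-0.49) and Dlgap4 (0.30). Endothelium markers were lower in the same arrays, with a median difference of -0.49, and their part in these values was not tested.

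In heart Gsg1l, an auxiliary AMPA receptor subunit, read 3.85, 4.10 and 3.70 in wild type and 3.04, 2.93 and 3.00 in transgenic heart. It fell by 0.89 ± 0.12 (adjusted p = 9.11e-04 by limma). Aldh5a1, the enzyme of the last step of GABA breakdown, read 6.40, 6.17 and 6.38 against 5.65, 5.26 and 5.50 and fell by 0.85 (adjusted p = 0.00287). Trak2 fell by 0.35 (adjusted p = 0.0396), a call lost in 11 of the 18 fits that left out 1 array. When heart arrays were fitted alone, none of the 3 passed, with an adjusted p of 0.07 for Gsg1l, 0.0816 for Aldh5a1 and 0.276 for Trak2, in the fit where 0.102% of all probe sets passed.

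**Figure D4:**
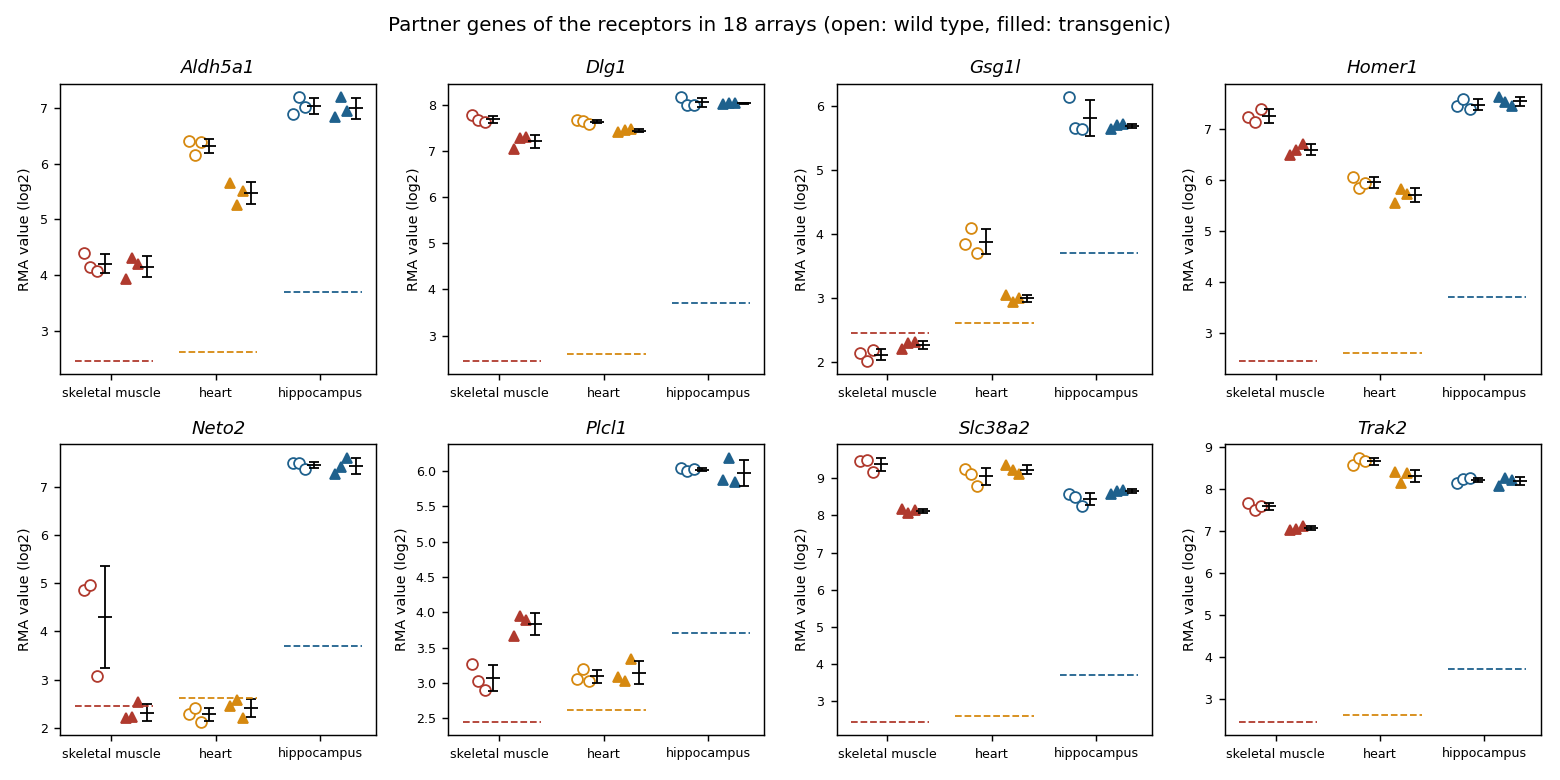
RMA values (log2) of the 8 partner genes named for muscle and heart, as open circles for wild type and filled triangles for transgenic arrays in each tissue, with the mean and SD of 3 arrays in black and the tissue's array median as a dashed line. Slc38a2 and Neto2 are lower in transgenic than wild type muscle, and Gsg1l and Aldh5a1 are lower in transgenic heart.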

How the data were processed

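Total RNA of skeletal muscle, heart and hippocampus was labelled for Affymetrix whole-transcript arrays, 3 per genotype and tissue, per the labels. The authors deposited log2 values after RMA (background correction, quantile normalization and summary per probe set). The submitters' processing notes name R 2.10.0 for this step. The scale of the values was checked against their range. Array medians were close within a tissue but differed by up to 1.25 between tissues. A common scale across the 3 tissues is therefore not assured. Probe sets were named from the platform annotation: 21153 carry 1 symbol, 1867 several and 12362 none. All 38 Entrez gene IDs of the members matched RefSeq (GRCm38.p6).

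The 35382 probe sets entered 1 limma 3.58.1 fit (R 4.3.3, lmFit and eBayes, 6 group means, 12 residual degrees of freedom), with Benjamini-Hochberg adjustment over all probe sets of a comparison and calls at an adjusted p under 0.05. The fit assumes the same spread in every group. The script was tested on simulated data. The members and gene lists were chosen with earlier results of these data known.

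Values on every array are given for members called between genotypes, the 4 smallest p-values per tissue, the largest and smallest difference of hippocampus over muscle in each subfamily, and members higher in muscle or heart; partner genes by adjusted p, at most 6 per comparison. For Gabrb2 the brightest probe set stands for the gene. Alternatives were other normalizations and filters, array weights, blocks, fits per tissue and leaving out each array. Precision is limited by 3 arrays a group.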

Additional observations from a re-analysis of the deposited data

Results flagged for a closer look

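The interaction of genotype and tissue (limma, adjusted over all probe sets) was read for the partner genes with the smallest adjusted p in muscle or heart. These genes were picked for a genotype call in 1 of the tissues, which favours a difference between tissues. The 3.89% of all probe sets that passed is therefore no background for them. For 6 of these genes the genotype difference itself differed between the tissues. Dlg1 (adjusted p = 0.077) and Trak2 (adjusted p = 0.0686) did not pass. The Slc38a2 difference was -1.25 in muscle, 0.18 in heart and 0.21 in hippocampus (adjusted p = 2.26e-04). That of Homer1 was -0.66 in muscle, -0.25 in heart and 0.07 in hippocampus (adjusted p = 0.0213). Plcl1 differed by 0.76, 0.06 and -0.05 in the same order (adjusted p = 0.021). Neto2 differed by -1.98, 0.14 and -0.03 (adjusted p = 0.0291). In heart, however, Neto2 had means of 2.28 in wild type and 2.42 in transgenic arrays, below the array median of 2.61. A level there cannot be told from background, so a fall in heart could have been missed. Gsg1l differed by 0.15 in muscle, -0.89 in heart and -0.13 in hippocampus (adjusted p = 0.00612). The same limit holds for Gsg1l in muscle, with means of 2.11 in wild type and 2.26 in transgenic arrays, below the median of 2.45. Aldh5a1 differed by -0.06, -0.85 and -0.04 (adjusted p = 0.0342). For 0 of the 40 receptor probe sets did this test pass; 3 had an unadjusted p under 0.05.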

How the results depend on the processing

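The 32 higher and 1 lower calls of hippocampus over muscle, and over heart, were the same in number under every alternative run. With only probe sets of 1 symbol tested, the member calls between genotypes were 2 in heart (6.07% of those probe sets passed) and 1 in muscle (14.1%). With only the arrays of a tissue fitted they were 0 in heart, where 0.102% of all probe sets passed. Leaving out 1 array gave 0 to 1 calls in muscle, 1 to 2 in heart, 0 to 2 for the mean over tissues, 5 to 10 for heart against muscle and 38 to 39 for hippocampus against muscle. These ranges show only how far the counts moved and are not set against a background. Heart against muscle gave 15 calls with arrays centred on their medians (41.7% of all probe sets), against 9. With centred arrays the hippocampus over muscle difference turned to -0.61 for Gabra6, -1.10 for Gabrp, -0.65 for Gabrr3, -0.11 for Grid2ip and -0.41 for Grm6, and for Gabrp to -0.44 after quantile normalization. Centring takes off the difference of 1.25 between the array medians of hippocampus and muscle, more than the uncentred difference of each of these 5 genes; Gabre and Gabrq were not recomputed. The values do not decide whether array numbers pair the arrays. Same-numbered arrays of the 2 genotypes correlated at -0.031 to 0.04 in their deviations from the group means, and differently numbered ones at -0.036 to 0.029. For 9 of 18 arrays the best match in the other genotype had the same number. Between tissues of a genotype the ranges were -0.054 to 0.047 for the same number and -0.043 to 0.057 for different numbers. With the replicate block the member calls were 0 in muscle (7.73% of all probe sets passed), 1 in heart (2.87%) and 0 in hippocampus (0%). Trak2 in heart lost its call in that limma fit (adjusted p = 0.0595). Of 416 values of single genes under alternatives other than leaving out an array, 397 kept direction and side of the threshold.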
